A study of Mus musculus with 16 samples.

Results

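The genes of nitric oxide, arginine and itaconate metabolism were followed in bone marrow-derived DCs (BMDCs) given the bacterial second messenger c-di-GMP (CDG), which activates the adaptor protein STING. The 8 genes were taken by name, and all 8 were found by symbol among the 23356 genes of the deposited table. They are *Nos2*, *Slc7a2*, *Gch1*, *Ass1*, *Asl*, *Arg1*, *Arg2* and *Irg1*. RNA-seq covered 16 samples, 2 for each of 8 conditions, of BMDCs cultured in GM-CSF plus IL-4 from marrow of C57BL/6-background mice. The 4 genotypes were wild-type (WT), *Tmem173*-/-, lacking the gene that encodes STING, *Irf1*-/- and *Irf3/7*-/-, which carries deletions of both *Irf3* and *Irf7*. BMDCs of each genotype were left untreated (NT) or given CDG at 25 μg/ml for 18 h, a dose taken from the sample labels, whereas the legends of the study give a different one. The values of treated *Tmem173*-/- BMDCs rest on a column whose name carries GDP in place of CDG. The knockouts were germline deletions. The labels give no age or sex, and do not say whether the replicates came from separate mice. The study's methods describe sex-matched young adult mice, with an age range in weeks, for its experiments in general. The authors combined the replicates of a condition into 1 expression value with a confidence interval, in FPKM, the number of fragments scaled to transcript length and library size, so no spread between replicates was available and no p-value was computed. The depth of the libraries is unknown from these values. Where a gene reached 10 FPKM or more in all conditions (4723 genes), the interval's median half-width was 25.2% to 25.7% of the FPKM.

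As background, macrophages and DCs take up arginine through cationic amino acid transporters and either oxidise it to nitric oxide and citrulline or split it into ornithine and urea. Inducible nitric oxide synthase (*Nos2*) and the arginases therefore draw on a common substrate, and citrulline can be returned to arginine. Itaconate is made from the citrate cycle intermediate cis-aconitate by the enzyme encoded by *Irg1* (now named *Acod1*), and restrains succinate dehydrogenase and bacterial growth.

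The targeted genes were checked against the labels. *Tmem173* stood at 8.97 and 7.49 FPKM in untreated and treated *Tmem173*-/- BMDCs, against 103 and 118 in WT. *Irf1* stood at 25.9 and 116 FPKM in *Irf1*-/- BMDCs, against 149 and 245 in WT. It was also low in *Tmem173*-/- BMDCs (24.1 and 23.3 FPKM), so its level alone does not single out the *Irf1*-/- conditions. *Irf7* stood at 1.07 and 4.97 FPKM in *Irf3/7*-/- BMDCs, against 15.2 and 687. *Irf3* stood at 7.74 FPKM in untreated *Irf3/7*-/- BMDCs, against 19.9 in WT, but at 20.2 FPKM in the treated condition, against 15.8 in treated WT. *Irf3* thus does not check this label, and the name *Irf3/7*-/- stands here for the condition as labelled. *Irf1* in treated *Irf1*-/- BMDCs (interval 82.8 to 149) was below treated WT but overlapped untreated WT (113 to 185). Whether the deletions leave part of these genes to be counted was not tested.

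A comparison tested the genes that reached 1 FPKM or more on either side and had an OK status from the authors' software on both. A call, higher or lower, required a difference above 2-fold and no overlap between the authors' intervals. Differences were computed on log2(FPKM + 0.1), which understates the change of genes with low values. In WT BMDCs, CDG raised *Nos2* from 15.2 to 334 FPKM, *Irg1* from 164 to 1717, *Slc7a2* from 41.7 to 212, *Arg2* from 1.65 to 11.7 and *Gch1* from 12.9 to 27.7. Of the 8 genes, 5 were called higher and 0 lower, where 10.5% of 11201 tested genes were called higher and 9.96% lower. The median log2 change of the 8 genes was 1.72, and that of all tested genes 0.0033.

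**Figure D1:**
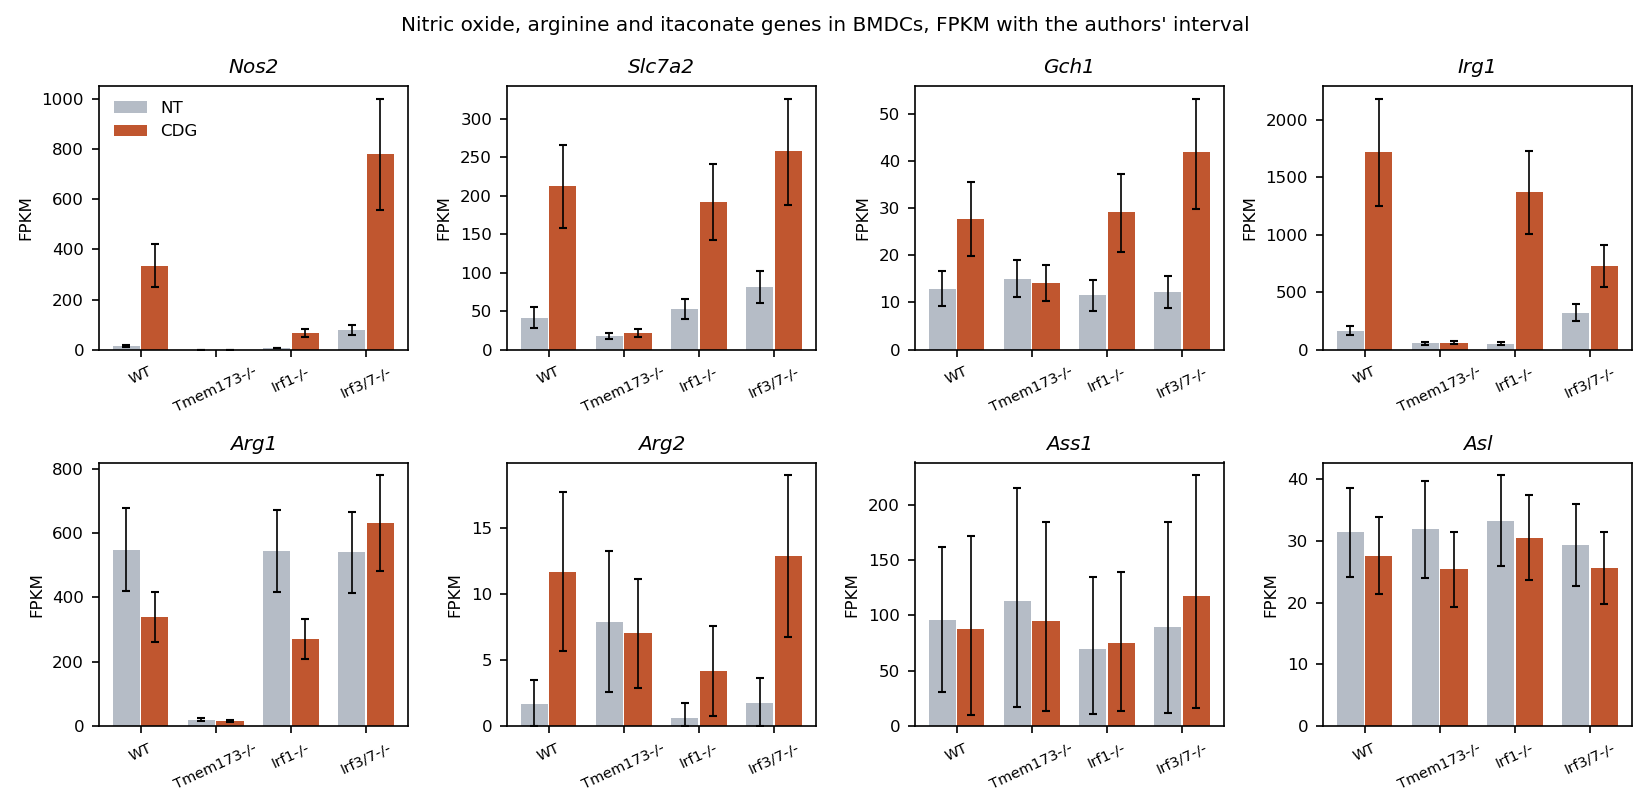
FPKM (vertical axes, linear, from 0) of the 8 genes in each genotype, untreated (NT, grey) and after CDG (orange). Bars are the authors' pooled value of each condition and error bars the authors' interval. *Nos2* reached 780 FPKM in treated *Irf3/7*-/- BMDCs, *Irg1* peaked at 1717 FPKM in treated WT BMDCs, and *Arg1* lay at 15.4 to 20.2 FPKM only in *Tmem173*-/- BMDCs.

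Sequences upstream of the transcription start were available for 3 of the 8 genes. They belong to *Irg1* and *Gch1*, which rose with CDG in WT BMDCs, and to *Ass1*, whose wide intervals did not allow a 2-fold change to be seen, and they are shown as the start regions these genes are read from. Each run is the 250 bases before the RefSeq start site of GRCm38.p6, given 5′ to 3′ on the strand of the gene, and capitals mark the motif matches named after them.
*Irg1* (Acod1), chr14:103046762-103047011, + strand: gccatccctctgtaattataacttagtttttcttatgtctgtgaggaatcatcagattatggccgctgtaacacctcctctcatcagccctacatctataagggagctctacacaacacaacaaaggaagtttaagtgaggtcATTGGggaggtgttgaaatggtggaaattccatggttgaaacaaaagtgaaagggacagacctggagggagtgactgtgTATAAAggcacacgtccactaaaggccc
*Gch1*, chr14:47189414-47189663, − strand: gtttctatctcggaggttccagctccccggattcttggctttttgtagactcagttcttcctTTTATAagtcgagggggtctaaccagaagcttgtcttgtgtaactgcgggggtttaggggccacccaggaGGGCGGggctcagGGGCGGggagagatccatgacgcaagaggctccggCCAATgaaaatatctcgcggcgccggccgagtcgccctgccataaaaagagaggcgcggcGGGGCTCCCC
*Ass1*, chr2:31470020-31470269, + strand: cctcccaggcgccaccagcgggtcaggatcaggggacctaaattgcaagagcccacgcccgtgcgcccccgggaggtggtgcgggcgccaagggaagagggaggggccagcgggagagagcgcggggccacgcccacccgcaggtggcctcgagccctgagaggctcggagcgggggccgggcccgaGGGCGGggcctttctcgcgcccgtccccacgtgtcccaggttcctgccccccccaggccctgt
The GC content of these windows was 44.4% for *Irg1*, 59.2% for *Gch1* and 75.6% for *Ass1*. The *Irg1* window held a TATA box (TATAAA) at −28 to −23, counted back from the base before the start site, and an inverted CCAAT box at −107 to −103. The *Gch1* window held a kappaB match in its last 10 bases, a CCAAT box at −70 to −66, GC boxes (GGGCGG) at −118 to −113 and −105 to −100, and an inverted TATA box at −188 to −183. The *Ass1* window held a GC box at −63 to −58. The search read both strands. None of these windows held a pair of IRF half-sites written as GAAA, any 2 bases, GAAA, an interferon-γ-activated site written as TTCNNNGAA, or an AP-1 site written as TGANTCA. Among 32817 mouse promoter windows of the same 250 bases, 2.97% held the IRF pair, 7.01% TTCNNNGAA, 6.75% TGANTCA, 7.25% a kappaB match, 12.4% TATAAA, 32.7% GGGCGG and 33.8% CCAAT. A match in such a window is a string of letters and does not show a bound site.

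*Nos2* (chromosome 11, 78920859 to 78960124, + strand, in GRCm38 coordinates of the deposited table as for all genes here), the gene for the enzyme that makes nitric oxide in activated myeloid cells, had the widest range of the 8. Untreated BMDCs held 15.2 FPKM in WT (interval 11.3 to 19.1), against 0.102 for *Tmem173*-/-, 6.10 for *Irf1*-/- and 78.6 for *Irf3/7*-/-. After CDG the values were 334 (248 to 420), 0.222, 65.1 (48.5 to 81.7) and 780 (558 to 1002) FPKM in the same order. Every treated genotype other than *Tmem173*-/- was above its untreated condition with no overlap of intervals. In the order of levels, *Irf1*-/- CDG and *Irf3/7*-/- NT overlapped, as did the *Tmem173*-/- pair, and the intervals of all other neighbours were separate.

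The log2 change of *Nos2* with CDG was 4.45 in WT BMDCs (3.70 to 5.20 from the opposite ends of the intervals), a 22.0-fold rise that ranked 79 of 11201 tested genes. It was 3.39 in *Irf1*-/- and 3.31 in *Irf3/7*-/- BMDCs, which is 76.2% and 74.3% of the WT log2 change. In both knockouts *Nos2* thus rose about as far from its own baseline, but the baselines lay on opposite sides of WT. Untreated *Irf1*-/- BMDCs were lower than untreated WT (log2 difference −1.30), and untreated *Irf3/7*-/- BMDCs were higher (2.37). After CDG *Nos2* was lower than in treated WT BMDCs in *Irf1*-/- (−2.36) and higher in *Irf3/7*-/- (1.22). *Irf1*-/- and *Irf3/7*-/- BMDCs after CDG, set against each other, differed by −3.58, a ratio of 0.0834. In *Tmem173*-/- BMDCs *Nos2* was under 1 FPKM in both conditions and its response was not tested. It was lower there than in WT both before (−6.24) and after CDG (−10.02).

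*Slc7a2* (chromosome 8, 40862367 to 40922070, + strand) encodes the cationic amino acid transporter CAT2, which brings arginine into activated macrophages. It stood at 41.7, 17.2, 52.2 and 81.5 FPKM in untreated WT, *Tmem173*-/-, *Irf1*-/- and *Irf3/7*-/- BMDCs, and at 212, 21.8, 192 and 257 FPKM after CDG. The 3 responding genotypes overlapped one another after CDG and all lay above every untreated condition. The log2 change was 2.35 in WT, 1.88 in *Irf1*-/- and 1.66 in *Irf3/7*-/- BMDCs, and each was called higher. In *Tmem173*-/- BMDCs it was 0.34 and not called, and *Slc7a2* was lower than in WT before CDG (−1.27) and after it (−3.28). Untreated *Irf3/7*-/- BMDCs had 1.96 times the WT level, with separate intervals but under the 2-fold threshold.

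*Gch1* (chromosome 14, 47153895 to 47189402, − strand) encodes GTP cyclohydrolase, which starts the synthesis of tetrahydrobiopterin, a cofactor of nitric oxide synthases. Its FPKM in untreated BMDCs was 12.9 (WT), 15.1 (*Tmem173*-/-), 11.5 (*Irf1*-/-) and 12.3 (*Irf3/7*-/-), and the 4 intervals overlapped. After CDG it was 27.7, 14.2, 29.2 and 41.8 FPKM. The log2 rises of 1.10 in WT, 1.33 in *Irf1*-/- and 1.76 in *Irf3/7*-/- BMDCs were called, and the value of −0.09 in *Tmem173*-/- was not. Treated *Tmem173*-/- and WT BMDCs had separate intervals but differed by −0.96, just under 2-fold. No baseline difference between genotypes was called for *Gch1*.

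The enzymes that return citrulline to arginine did not pass the rule anywhere. *Asl* (chromosome 5, 130011503 to 130024331, − strand), the gene for argininosuccinate lyase, lay between 25.4 FPKM in treated *Tmem173*-/- and 33.3 FPKM in untreated *Irf1*-/- BMDCs. The half-widths of its 8 intervals were 22.2% to 24.8% of the FPKM, and the change in WT was −0.18 with bounds of −0.85 and 0.48. *Ass1* (chromosome 2, 31470270 to 31520670, + strand), the gene for argininosuccinate synthase, lay between 69.4 and 118 FPKM. Its intervals spanned 68.3% to 96.2% of the FPKM on each side, so a 2-fold change of *Ass1* was not detectable. The deposited table gives the same locus to *Gm5424*, with 197 to 448 FPKM and a status of too little data in every condition. RefSeq lists *Gm5424* as a transcribed pseudogene on chromosome 10, and reads may be split between it and *Ass1*, so the level of *Ass1* is uncertain.

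*Irg1* (chromosome 14, 103047012 to 103056573, + strand) was the most abundant of the 8 genes in treated WT and *Irf1*-/- BMDCs. Untreated BMDCs held 164 FPKM in WT (126 to 202), against 55.6 for *Tmem173*-/-, 50.6 for *Irf1*-/- and 323 for *Irf3/7*-/-. Treated BMDCs held 1717 (1248 to 2186), 60.5, 1371 (1010 to 1731) and 729 (548 to 909) FPKM. In treated WT BMDCs *Irg1* ranked 34 among all genes by FPKM. Treated WT and *Irf1*-/- BMDCs overlapped, and both lay above treated *Irf3/7*-/- BMDCs.

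The log2 change of *Irg1* was 3.39 in WT, 4.76 in *Irf1*-/- and 1.17 in *Irf3/7*-/- BMDCs, all called higher. *Irf1*-/- BMDCs started lower than WT (−1.70) and ended at −0.32 from it, which was not called, a rise of 27.1-fold against 10.5-fold in WT. *Irf3/7*-/- BMDCs started at 1.97 times the WT level, which was not called, and ended lower than WT (−1.24). They kept 34.7% of the WT log2 change in *Irg1*, against 74.3% for *Nos2*, 70.6% for *Slc7a2* and 161% for *Gch1*. The corresponding shares in *Irf1*-/- BMDCs were 141% for *Irg1*, 76.2% for *Nos2*, 80.0% for *Slc7a2* and 122% for *Gch1*. *Nos2* and *Irg1* were thus placed in opposite order in the treated knockouts. *Nos2* in *Irf1*-/- BMDCs had 0.0834 times the *Irf3/7*-/- level, and *Irg1* had 1.88 times the level in *Irf1*-/- BMDCs, the latter with separate intervals but not called.

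*Arg1* (chromosome 10, 24915207 to 24927470, − strand) encodes the arginase that splits cytosolic arginine and marks alternatively activated macrophages. Its FPKM in untreated BMDCs was 549 (WT), 20.2 (*Tmem173*-/-), 544 (*Irf1*-/-) and 540 (*Irf3/7*-/-). After CDG it was 339, 15.4, 270 and 631. The untreated *Irf1*-/- and *Irf3/7*-/- values were 0.991 and 0.984 times that of WT with overlapping intervals, and *Tmem173*-/- BMDCs stood far below in both conditions. *Arg1* fell with CDG in *Irf1*-/- BMDCs (−1.01). In WT it differed by −0.69 with intervals that only just separated, which missed the 2-fold threshold, and in *Irf3/7*-/- by 0.23. Against WT, *Tmem173*-/- BMDCs were lower before (−4.76) and after CDG (−4.45). Treated *Irf1*-/- BMDCs were lower than treated *Irf3/7*-/- BMDCs (−1.23). Against treated WT BMDCs (interval 261 to 418), treated *Irf3/7*-/- BMDCs (482 to 781) lay above with separate intervals but under the 2-fold threshold. Treated *Irf1*-/- BMDCs (207 to 332) overlapped treated WT.

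*Arg2* (chromosome 12, 79130788 to 79172458, + strand) encodes the mitochondrial arginase. It was scarce in untreated WT (1.65 FPKM), *Irf1*-/- (0.600) and *Irf3/7*-/- BMDCs (1.78), with intervals reaching 0, and stood at 7.92 FPKM in untreated *Tmem173*-/- BMDCs. After CDG the values were 11.7, 4.19, 12.9 and 7.03 FPKM in WT, *Irf1*-/-, *Irf3/7*-/- and *Tmem173*-/- BMDCs. The rises in WT (2.75) and *Irf3/7*-/- BMDCs (2.79) were called. The difference of 2.62 in *Irf1*-/- BMDCs was of like size, but the intervals overlapped. The locus the authors give for *Arg2* also takes in *Vti1b*, which had 49.0 to 68.4 FPKM, and the *Arg2* intervals spanned 47.6% to 145% of the FPKM on each side. In *Tmem173*-/- BMDCs the FPKM ratio of *Arg1* to *Arg2* was 2.55 untreated and 2.20 after CDG, and in the other genotypes it was 29.0 or more.

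**Figure D2:**
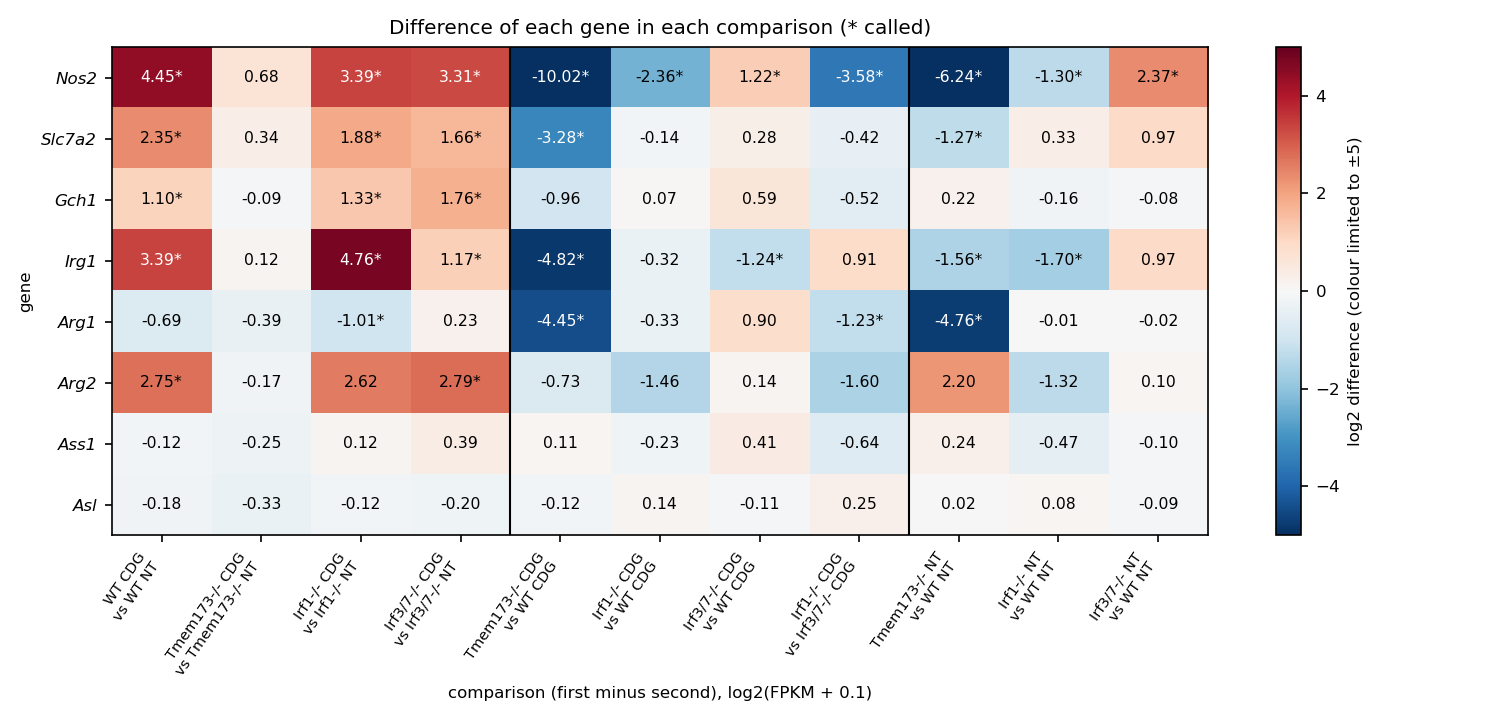
Difference in log2(FPKM + 0.1) of the 8 genes (rows) in the 11 comparisons (columns), first condition minus second, in red where higher and blue where lower. An asterisk marks a called difference. The left block holds the responses to CDG, the middle block treated genotypes and the right block untreated genotypes. *Tmem173*-/- BMDCs have 0 called responses, where 6 of all 10867 tested genes were called.

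Counted over genotypes, the response in *Irf1*-/- BMDCs held 4 members called higher and 1 lower of 8, beside 9.67% and 7.81% of all tested genes. In *Irf3/7*-/- BMDCs 5 were higher and 0 lower, beside 10.2% and 7.68%. In *Tmem173*-/- BMDCs 0 of 7 tested members were called in either direction, beside 0.046% higher and 0.0092% lower, which is 5 and 1 of 10867 tested genes. With so few calls in this comparison, 0 of 7 is not a result about these genes. After CDG, 4 members (*Nos2*, *Irg1*, *Arg1*, *Slc7a2*) were lower in *Tmem173*-/- than in WT BMDCs and 0 higher, where 13.5% of tested genes were lower and 12.9% higher. In treated *Irf1*-/- BMDCs 1 member, *Nos2*, was lower than in WT and 0 higher, beside 4.91% and 2.65%. In treated *Irf3/7*-/- BMDCs *Nos2* was higher and *Irg1* lower than in WT, beside 4.61% higher and 2.69% lower. Between treated *Irf1*-/- and *Irf3/7*-/- BMDCs 2 members, *Nos2* and *Arg1*, were lower in *Irf1*-/- and 0 higher, beside 6.62% and 3.22%. These comparisons share treated WT or treated knockout conditions, so their counts are not separate evidence.

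Some of these differences were present without CDG. Untreated *Tmem173*-/- BMDCs had 4 members lower than untreated WT (*Nos2*, *Arg1*, *Irg1*, *Slc7a2*) and 0 higher, beside 5.95% and 5.04% of tested genes. *Nos2* and *Irg1* were the 2 members lower in untreated *Irf1*-/- BMDCs, with 0 higher, beside 3.52% and 1.26%. *Nos2* was the 1 member higher in untreated *Irf3/7*-/- BMDCs, with 0 lower, beside 1.17% and 0.863%. All of these share the untreated WT condition.

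The balance of *Nos2* and *Arg1*, the competing consumers of arginine, shifted with CDG in WT, *Irf1*-/- and *Irf3/7*-/- BMDCs. Their FPKM ratio (*Nos2* over *Arg1*) rose from 0.0277 to 0.985 in WT BMDCs, with bounds of 0.0167 to 0.0454 and 0.594 to 1.61. It went from 0.0112 to 0.241 in *Irf1*-/- and from 0.146 to 1.24 in *Irf3/7*-/- BMDCs. In *Tmem173*-/- BMDCs it was 0.00503 and 0.0144, with overlapping bounds (0.00160 to 0.0109 and 0.00523 to 0.0287) and *Nos2* under 1 FPKM. The bounds of treated WT and *Irf3/7*-/- BMDCs overlapped, and treated *Irf1*-/- BMDCs (0.146 to 0.394) lay below both. The ratio of *Irg1* to *Nos2* after CDG was 5.13 in WT, 21.1 in *Irf1*-/- and 0.934 in *Irf3/7*-/- BMDCs, with bounds that did not overlap.

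**Figure D3:**
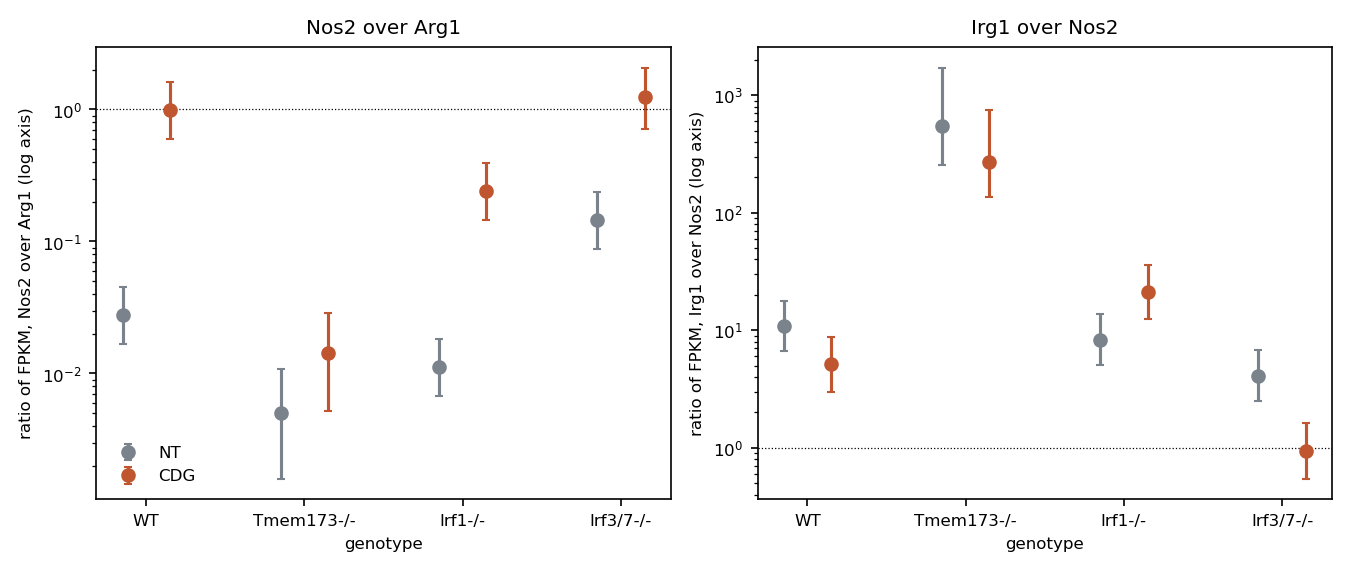
Ratio of FPKM of *Nos2* over *Arg1* (left) and of *Irg1* over *Nos2* (right) in each genotype on log axes, untreated (grey) and after CDG (orange). Points are ratios of the pooled values, error bars join the opposite ends of the authors' intervals, and the dotted line marks equal levels. The ratio of *Nos2* to *Arg1* is 0.985 in treated WT BMDCs, with bounds on either side of equal levels, and 0.241 in treated *Irf1*-/- BMDCs, with bounds below them.

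The cultures also differed in markers of other cells. Beside the marker counts against WT stand these shares of all tested genes, higher and lower. After CDG they were 12.9% and 13.5% for *Tmem173*-/-, 2.65% and 4.91% for *Irf1*-/-, and 4.61% and 2.69% for *Irf3/7*-/- BMDCs. Untreated, they were 5.04% and 5.95%, 1.26% and 3.52%, and 1.17% and 0.863% in the same order. Of the 10 listed DC markers, 9 or 10 reached 1 FPKM or more in every condition. Where 9 did, *Cd209a* was the exception. It stood at 0.182 and 0 FPKM in untreated and treated WT, 0.178 and 0.0189 in *Irf3/7*-/- and 0.0796 in treated *Irf1*-/- BMDCs. Levels of the DC markers differed between genotypes. In treated *Irf1*-/- BMDCs the class II genes *H2-Ab1* and *H2-Aa* and their activator *Ciita* were lower than in WT (−1.43, −1.62 and −1.49). In treated *Tmem173*-/- BMDCs *Ccr7*, *Cd86* and *Ciita* were lower (−3.46, −2.79 and −1.28) and *Itgax* and *Cd209a* higher, and in treated *Irf3/7*-/- BMDCs 1 marker, *Flt3*, was higher and 1, *Ciita*, lower. The part of these differences in the members' values was not tested. *Ifng*, whose product is a classical inducer of *Nos2*, stood at 34.6 and 299 FPKM in untreated and treated WT BMDCs, at 1.26 and 25.5 for *Irf1*-/- and at 44.0 and 1155 for *Irf3/7*-/- BMDCs. It was listed at 0 in both *Tmem173*-/- conditions. The 12 T and NK cell markers, *Ifng* among them, summed to 778 and 1018 FPKM in WT, 1.45 and 1.42 for *Tmem173*-/-, 22.7 and 62.5 for *Irf1*-/- and 821 and 3477 for *Irf3/7*-/- BMDCs. Of the 9 tested in treated BMDCs, 9 were lower in *Tmem173*-/- than in WT, 8 were lower in *Irf1*-/- and 9 were higher in *Irf3/7*-/-. *Ncr1* was listed at 0 in both *Irf1*-/- conditions, and 0 of 12 markers reached 1 FPKM in *Tmem173*-/- BMDCs.

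Within each treatment, the order of *Nos2* across genotypes therefore followed that of *Ifng* and of these markers. Across treatments it did not always do so. *Nos2* stood at 65.1 FPKM in treated *Irf1*-/- and 15.2 FPKM in untreated WT BMDCs, with separate intervals. *Ifng* stood there at 25.5 and 34.6 FPKM with overlapping intervals, and the 12 markers summed to 62.5 and 778 FPKM. The part of *Ifng* and these markers in the *Nos2* differences was not tested. Within WT BMDCs, the 11 markers other than *Ifng* summed to 744 FPKM without and 719 FPKM with CDG, and both *Ifng* and *Nos2* rose. In *Irf3/7*-/- BMDCs they went from 776 to 2322 FPKM. In untreated *Irf3/7*-/- and WT BMDCs, *Nos2* had a ratio of 5.18, *Ifng* stood at 44.0 and 34.6 FPKM with overlapping intervals, and the 11 markers summed to 776 and 744 FPKM. In such bulk samples, fewer cells of a type and less RNA per cell cannot be told apart.

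**Figure D4:**
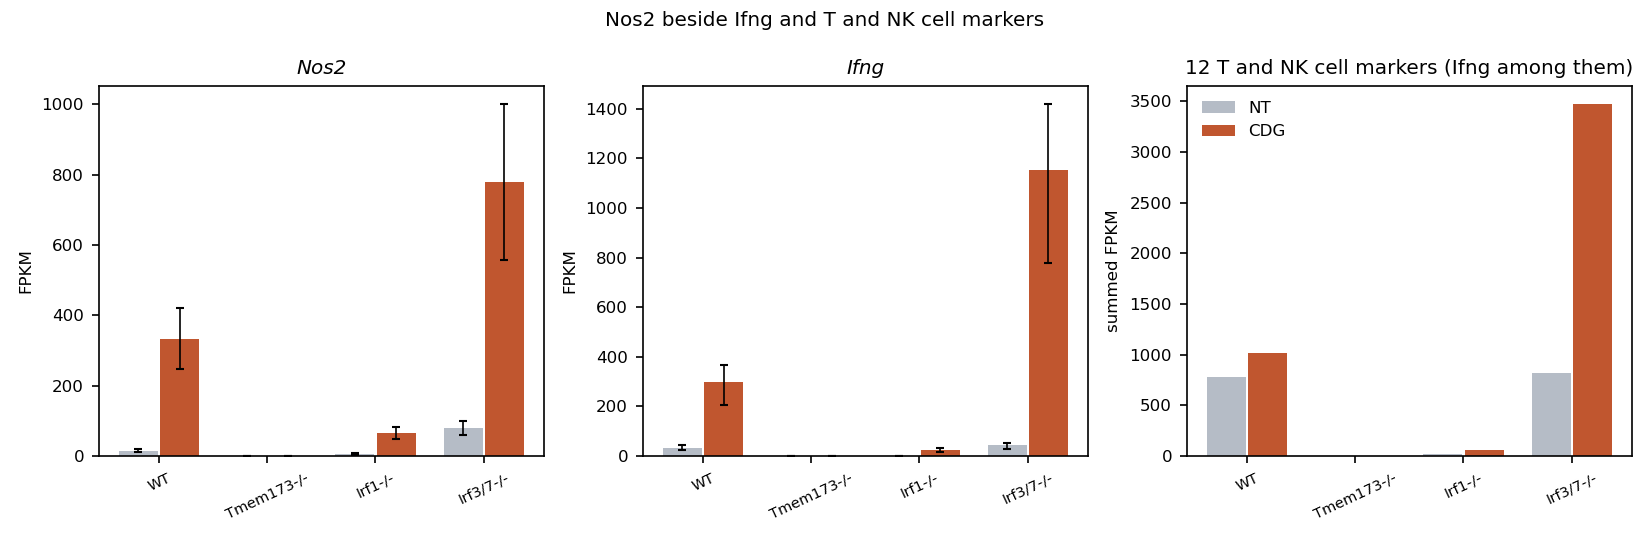
FPKM of *Nos2* (left) and *Ifng* (middle) with the authors' intervals, and the summed FPKM of 12 T and NK cell markers including *Ifng* (right), by genotype, untreated (grey) and after CDG (orange). All 3 panels are highest in treated *Irf3/7*-/- BMDCs and near 0 in *Tmem173*-/- BMDCs, and in WT the marker sum was 778 FPKM untreated and 1018 FPKM treated.

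Neutrophil markers differed most between *Tmem173*-/- and WT BMDCs. Of 7 tested, 6 were higher in *Tmem173*-/- than in WT BMDCs both untreated and after CDG, and their summed level was 20003 and 14533 FPKM against 4015 and 1905 in WT. *S100a8*, the largest value of each sum, lay above its own interval in every condition, so its calls and the sums are uncertain. *Mpo* was higher than in WT in every knockout, untreated and treated. *Ltf*, *Camp* and *Ngp* were lower than in WT in treated *Irf1*-/- BMDCs, and *Ltf* and *Ngp* in treated *Irf3/7*-/- BMDCs. Macrophage markers summed to 608 and 558 FPKM in *Tmem173*-/- against 270 and 310 in WT. Untreated, 2 of 9 (*Csf1r* and *Cd68*) were higher there and 0 lower, and after CDG 5 were higher and 1, *Mertk*, was lower (3.74 against 16.9 FPKM). In *Irf1*-/- BMDCs 6 of 9 were lower in the untreated condition than in WT, with a sum of 197 FPKM, and 4 of 9 after CDG. Of the 5 basophil and mast cell markers, 4 were higher in *Irf3/7*-/- than in WT BMDCs in either condition. The 4 B cell markers summed to 3.34 to 10.3 FPKM over all conditions, with 3 of 4 higher in *Tmem173*-/- than in WT BMDCs in either condition. The low *Arg1*, *Nos2*, *Irg1* and *Slc7a2* of untreated *Tmem173*-/- BMDCs stood beside these values, whose part in them was not tested.

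The wider pathways were read from lists of genes. Beside the WT counts below stand the shares of all tested genes in that comparison, 10.5% higher and 9.96% lower, with a median of 0.0033, and a count near those shares is not a result about its list. Of the other genes of tetrahydrobiopterin synthesis and recycling beside *Gch1*, 0 of 5 tested changed with CDG in WT BMDCs, with a median of −0.36. After CDG, *Gchfr*, whose product restrains GTP cyclohydrolase, was called higher in *Tmem173*-/- than in WT BMDCs, by 2.01 on the log2 scale. It only just passed the 1 FPKM needed for testing in *Tmem173*-/- BMDCs, and stood at 0.175 FPKM in WT. In that comparison 2 of 6 tested genes of the list were higher, beside 12.9% of all tested genes. Untreated, *Gchfr* already stood at 1.62 FPKM in *Tmem173*-/- against 0.545 FPKM in WT BMDCs (1.42), with overlapping intervals and no call. Of the other arginine transporters, 0 of 4 tested were called with CDG in WT, too few genes to set against the shares of the WT response. *Slc7a3*, which encodes the transporter CAT3, rose in *Irf1*-/- BMDCs from 0.165 to 3.99 FPKM and in *Irf3/7*-/- BMDCs from 0.153 to 1.23 FPKM. In WT it went from 0.184 to 0.809 FPKM with separate intervals, but stayed under the 1 FPKM needed for testing. After CDG it was higher in *Irf1*-/- than in WT BMDCs (2.17), and the difference of *Irf3/7*-/- from WT (0.55) was not called. Among 4 tested genes of other nitric oxide functions, 1 was called in WT, *Nos1ap*, an adaptor of neuronal nitric oxide synthase, which fell from 1.11 to 0.240 FPKM. Of the urea cycle list, 2 genes were tested in WT and 0 were called, and the ornithine carrier *Slc25a15* fell in *Irf3/7*-/- BMDCs from 2.06 to 0.930 FPKM.

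Downstream of arginase, ornithine feeds polyamines and proline. Of 10 tested genes of these steps in WT BMDCs, 1 rose and 2 fell, counts too small to set apart from the shares of all genes, and the median was −0.79. *Smox*, the spermine oxidase, rose from 7.68 to 33.2 FPKM. *Srm*, the spermidine synthase, fell from 64.2 to 12.2 FPKM, and *Gatm*, which uses arginine to begin creatine synthesis, from 198 to 79.9 FPKM. *Srm* also fell in *Irf1*-/- (78.0 to 23.1 FPKM) and *Irf3/7*-/- BMDCs (72.4 to 15.9 FPKM), and 0 of 11 tested genes were called in *Tmem173*-/- BMDCs, where 6 of all 10867 were. *Smox* reached 69.2 FPKM in treated *Irf3/7*-/- BMDCs and rose there too. *Gatm* was higher in treated *Irf1*-/- (274 FPKM) than in treated WT BMDCs.

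Around the itaconate branch, 6 of 23 tested genes of citrate, aconitate and succinate metabolism fell with CDG in WT BMDCs and 1 rose, beside 9.96% and 10.5% of all tested genes, and the median was −0.64 beside 0.0033. *Idh2*, the mitochondrial NADP-dependent isocitrate dehydrogenase, fell from 50.1 to 11.1 FPKM. *Idh3a*, a subunit of the NAD-dependent isocitrate dehydrogenase, fell from 47.6 to 15.9 FPKM, and *Fh1*, fumarate hydratase, from 117 to 34.9. *Clybl*, which encodes the lyase that acts on citramalyl-CoA in itaconate breakdown, fell from 10.6 to 3.08 FPKM. The gene that rose was *Slc25a1*, the citrate carrier of the mitochondrial membrane, from 28.8 to 66.6 FPKM. In *Irf1*-/- BMDCs 6 fell and 1 rose, beside 7.81% and 9.67% of all tested genes, and in *Irf3/7*-/- BMDCs 7 fell and 1 rose, beside 7.68% and 10.2%. *Idh2*, *Idh3a*, *Fh1*, *Mdh2* and *Clybl* fell and *Slc25a1* rose in WT, *Irf1*-/- and *Irf3/7*-/- BMDCs alike. In *Tmem173*-/- BMDCs, with 6 calls among 10867 genes, 0 of 23 were called, and between untreated genotypes and WT 0 of 23 were called in each comparison. The *Irg1* rises of 4.76 in *Irf1*-/- and 1.17 in *Irf3/7*-/- BMDCs stood beside list medians of −0.63 and −0.70 in these genotypes.

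*Arg1* was set beside other genes of alternative activation. Of 7 tested in WT BMDCs, 6 fell with CDG and 0 rose, beside 9.96% and 10.5% of all tested genes, with a median of −1.59 beside 0.0033 for all tested genes. *Ccl17*, at 11439 FPKM untreated and 13781 FPKM treated, was the gene not called. *Chi3l3* (7751 FPKM treated) and *Ccl22* (5771 FPKM untreated) had no usable value in the other WT condition, so neither response was tested. *Mrc1*, the mannose receptor, fell from 9.52 to 0.721 FPKM, *Clec10a* from 22.9 to 3.46 and *Mgl2* from 1115 to 184, both galactose-type lectins, and *Retnla*, a resistin-like secreted protein, from 500 to 166 FPKM. In *Irf1*-/- and *Irf3/7*-/- BMDCs 6 of 7 also fell, beside 7.81% and 7.68% of all tested genes. In *Tmem173*-/- BMDCs 0 of 9 were called, where 6 of all 10867 tested genes were, so this count is not a result about the list. *Retnla* stood higher in untreated *Irf1*-/- (3267 FPKM) and *Irf3/7*-/- (2855 FPKM) than in WT BMDCs, whereas *Arg1* was not called there. In untreated *Tmem173*-/- BMDCs 3 of 8 were lower than in WT and 1 higher, beside 5.95% and 5.04% of all tested genes. *Ccl24*, an eosinophil chemoattractant, was lower at 1.97 against 746 FPKM and *Retnla* at 3.84 against 500 FPKM, as was *Ccl22*, a chemokine, at 2172 against 5771 FPKM, whereas *Mrc1* was higher at 42.7 against 9.52 FPKM. The low *Arg1* of *Tmem173*-/- BMDCs was thus not matched by all genes of the list.

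**Figure D5:**
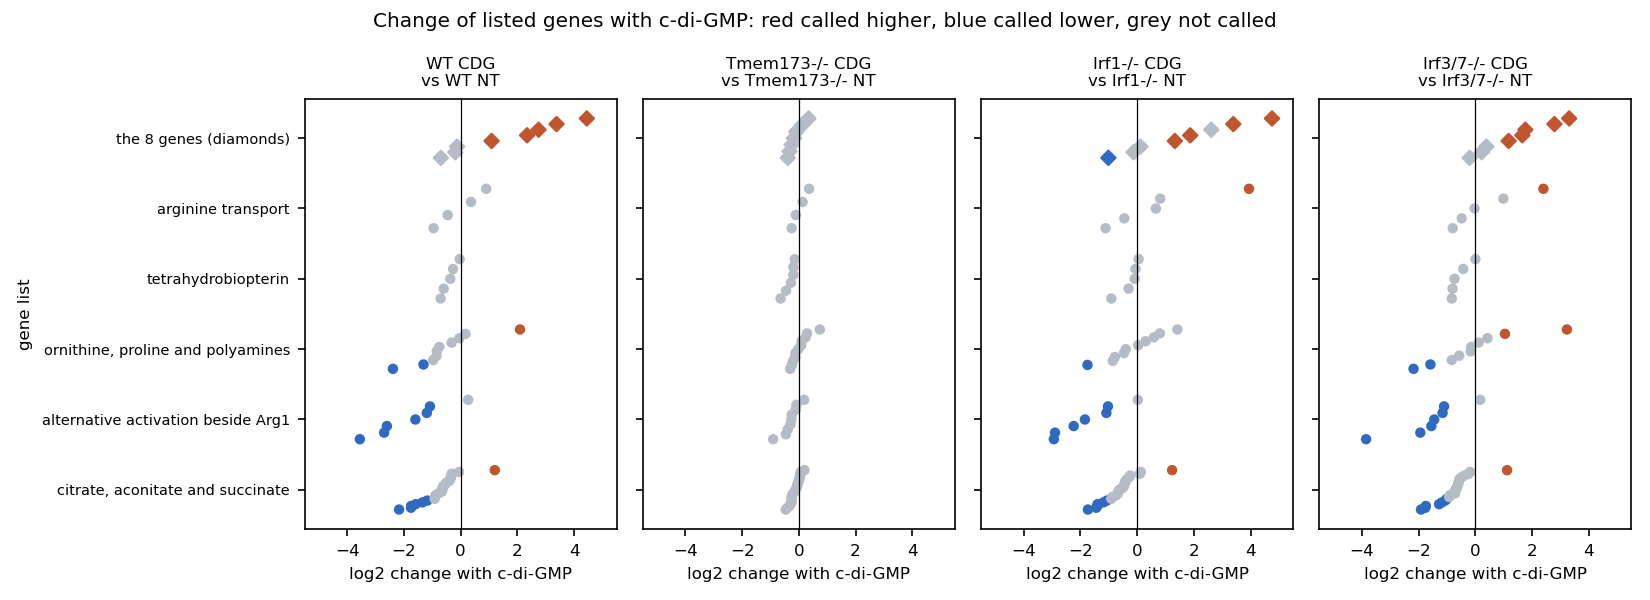
Log2 change with CDG (horizontal axes) of every tested gene of 5 pathway lists and of the 8 genes (diamonds) in the 4 genotypes, red where called higher, blue where called lower and grey where not called. Genes of the citrate and alternative activation lists lie mostly left of 0 in WT, *Irf1*-/- and *Irf3/7*-/- BMDCs. In *Tmem173*-/- BMDCs 0 points are called, where 6 of all 10867 tested genes were called.

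The genes whose profile was most like that of a member were found by Pearson r of log2(FPKM + 0.1) over the 8 conditions, among 7381 genes that reached 10 FPKM in a condition. The conditions share genotypes and treatment, and 8 points leave high values by chance, so r is a description. *Nos2* was nearest to *Tox4*, *Cttnbp2nl* and *Ifng* (r = 0.98 each), *Irg1* to the guanylate-binding protein gene *Gbp5*, *Mgat1* and *Sp110* (0.98 each), and *Arg1* to *Ccl24*, *Got1* and *Gimap9* (0.99 each). *Tox4* moved only between 19.5 and 36.6 FPKM, so a high r did not mean a like range. *Ifng* spanned 0 to 1155 FPKM and *Gbp5* 9.05 to 398 FPKM. *Gch1* was nearest to *Tnfsf9* (0.99), *Slc7a2* to *Rundc1* (0.99), *Arg2* to *Naip2* (0.98) and *Ass1* to *Vps37b* (0.92). Between members, *Slc7a2* lay near *Nos2* (0.95) and *Irg1* (0.91), *Nos2* and *Irg1* had 0.86, and *Arg1* and *Arg2* had −0.40.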

How the data were processed

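BMDCs of 4 genotypes, untreated or given CDG for 18 h, were profiled by stranded mRNA sequencing, 16 samples in 8 conditions. The deposited table holds FPKM that the authors computed with Cuffdiff (version 1.06 in the submitters' processing notes, another in the paper), 1 value per condition with its interval and status, the 2 replicates combined. No aligner is given in the sources used here. Those notes name mm9, but 21286 of 21522 loci with a RefSeq symbol overlapped that gene in GRCm38.p6, so the coordinates were read as GRCm38. Another 4 columns match no sample of the series and were not used. Columns were assigned to conditions by their names. The name of the column taken as treated *Tmem173*-/- ends in GDP and not in CDG, and it was read so because the other *Tmem173* column names no treatment, so all treated *Tmem173*-/- values rest on that reading. FPKM keeps no read counts, and depth is unknown: over 2878 genes of low value, the fullest bin (0.05 on the log2 scale) of their ratios between conditions held 3.47%, and steps of whole reads were not seen.

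Values were taken as log2(FPKM + 0.1). A gene was tested at 1 FPKM or more in either condition and status OK in both, and called at a difference over 2-fold with intervals that did not overlap. The 11 comparisons were each treatment within genotype, each knockout against WT within treatment, and treated *Irf1*-/- against treated *Irf3/7*-/-. Because replicates were combined, no test across replicates was made. Genes named were the 8 members, the targeted genes, *Ifng*, called genes of the lists (at most 4 by size of change for each sentence, further ones chosen after their values were seen) and the 3 genes nearest to each member by r. Some results that the rule takes in are not reported here. The members and lists were chosen with earlier results of these data known. Other pseudocounts, filters, folds, centring and interval rules were tried. Sequences came from RefSeq, which gave a promoter for 3 of 8 members. Scripts used matplotlib 3.10.9, scipy 1.17.1, pandas 2.3.3, numpy 2.4.6 and Python 3.11.15.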

Additional observations from a re-analysis of the deposited data

How the results depend on the processing

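Each count of members called was recomputed under 9 alternatives (1 or 0.01 FPKM as pseudocount, a minimum of 5 FPKM or none, a fold threshold of 1.5 or 4, median centring, fold change alone, and a z value read from the interval width), and 91 of 99 stayed within 1.5 times. With a fold threshold of 4, members called numbered 2 in the response of *Irf1*-/- and 2 in that of *Irf3/7*-/- BMDCs, 0 for treated *Irf3/7*-/- against WT, 1 for treated *Irf1*-/- against *Irf3/7*-/-, 2 for untreated *Tmem173*-/- and 0 for untreated *Irf1*-/- against WT. With a threshold of 1.5, 3 members were called in untreated *Irf3/7*-/- against WT, *Slc7a2* and *Irg1* being added. With fold change alone, 2 were called in treated *Irf1*-/- against WT, *Arg2* being added. Of 792 recomputed log2 differences, 764 kept their call and sign, 14 lost a call, 13 gained one, 1 without a call changed sign and 0 with a call did. *Gch1* in treated *Tmem173*-/- against WT BMDCs was called lower at a threshold of 1.5 and after median centring (−1.01), and *Arg1* with CDG in WT BMDCs was called lower at a threshold of 1.5. Over all genes, 2291 were called in the WT response, against 592 to 3087 under the alternatives, and 6 in the *Tmem173*-/- response, against 0 to 83. No paired analysis was possible because the deposited columns combine the replicates, and for the same reason leaving out a replicate was not run. The interval widths limit *Ass1* and *Arg2* most.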
